A study of Rattus norvegicus with 6 samples.

Results

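The genes described here are 10 components of the Notch pathway, read by gene symbol from the deposited count table: the receptors Notch1, Notch2, Notch3 and Notch4, the ligands Jag1, Jag2, Dll1 and Dll4, and the target genes Hes1 and Hey1. All 10 were found among the 30562 rows of the table, and all 10 had enough counts to be tested. Bulk RNA sequencing covered 6 mammary tumors of female F344 rats, of which tumors 102, 107 and 116 (3) grew in older rats and tumors 157, 158 and 167 (3) in younger rats. The older rats came from the National Institute on Aging colony at 19 to 21 months of age, and the younger rats were virgin animals bought at 6 to 8 weeks. The rats were kept in the facility before treatment, and their ages when the tumors were taken are not given in the sources used here. Every rat, in both groups, carried a subcutaneous 50 mg pellet of medroxyprogesterone acetate (MPA), a progestin released over 90 days, and received a single gavage of 7,12-dimethylbenz[a]anthracene (DMBA), a carcinogen, at 65 mg/kg. There was no untreated or normal gland group among these libraries. The younger tumors were all that formed in that cohort, whereas the older tumors were those with enough tissue, and each library is 1 tumor.

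Notch receptors are single-pass proteins that are activated by ligands of the Jagged and Delta-like families on a neighboring cell. Ligand binding exposes the receptor to cleavage by ADAM proteases and then by gamma-secretase, and the freed intracellular domain enters the nucleus, where it joins the DNA-binding protein RBPJ and a Mastermind coactivator to switch on genes such as Hes1 and Hey1. In the mammary gland the pathway is known for its part in luminal cell fate, and in blood vessels Notch4 and Dll4 are known from endothelial cells and Notch3 from mural cells, the smooth muscle cells and pericytes around vessels.

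Counts in named genes summed to between 3394451 and 6383983 per tumor, and the totals of older and younger tumors overlapped (exact permutation p = 0.4, two-sided). CPM here means counts scaled to library size with edgeR's TMM factors, and the detection floor of 3 counts lay between 0.528 and 1.03 CPM, which covers counting error only. Older tumor 102 stood somewhat apart, with a mean correlation of 0.829 with the other tumors across genes against 0.867 to 0.898 for the rest. Of 77 listed markers of 9 cell types, 70 were found in the table and 62 passed the filter on low counts. Among them were 9 of 10 luminal and 6 of 8 basal epithelial markers. Krt14 and Krt15 of the basal list were not found, so the basal values rest on Krt5, Krt17, Tp63, Oxtr, Mylk and Cdh3. The summed CPM of luminal epithelial markers was 1274 to 1522 in older and 1845 to 2836 in younger tumors, and that of basal epithelial markers was 383 to 1361 and 1016 to 1739. Macrophage markers summed to 529 to 1184 CPM in older and 135 to 291 CPM in younger tumors. Much of that sum was 1 gene, Lyz2, at 511 (tumor 102), 833 (107) and 332 CPM (116) in older tumors. In younger tumors Lyz2 stood at 139 (157), 81.4 (158) and 42.0 CPM (167). In bulk tissue, fewer cells of a type and less RNA per cell cannot be told apart.

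Older and younger tumors were compared to learn whether host age went with a different supply of Notch components. The differences that stood out by size were these: Jag1 and Notch1 were lower in every older tumor than in every younger one, and Notch4 was higher in every older tumor. With adjustment over all 13139 genes tested, 0 of the 10 Notch genes passed a threshold of 0.05 (edgeR's quasi-likelihood test), as did 0% of all genes. At an unadjusted p under 0.05 there were 3 of the 10, against 8.59% of all genes, with 2 lower in older tumors (3.29% of all genes) and 1 higher (5.30%). The age groups did not overlap for the same 3 genes, 2 lower in older tumors (5.58% of all genes) and 1 higher (6.51%). Of the fold changes 7 were negative, and the median log2 fold change of the 10 genes, older against younger, was -0.56, while that of all genes tested was 0.00.

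**Figure D1:**
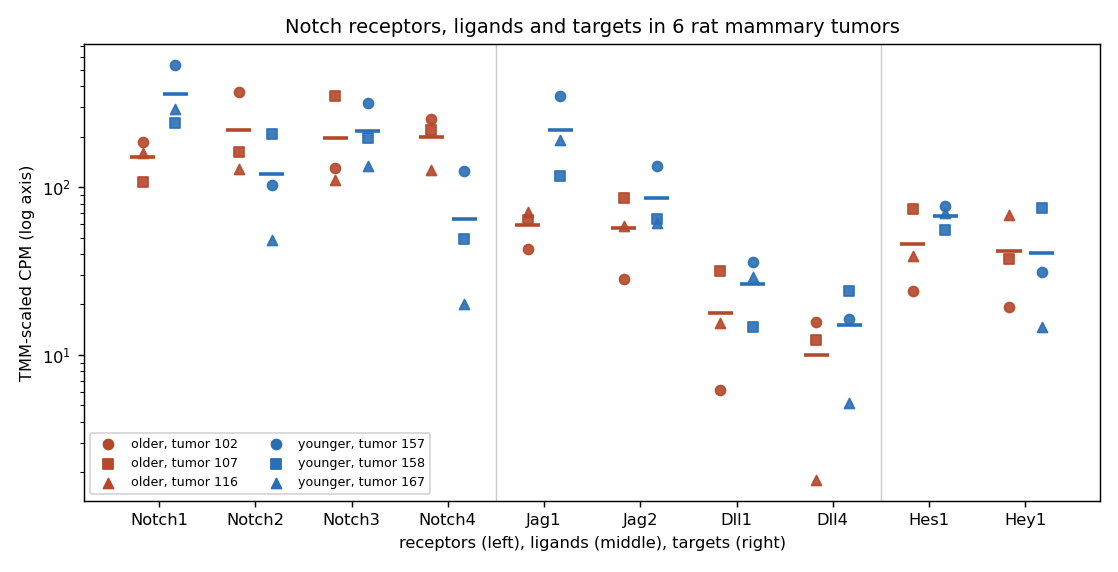
TMM-scaled CPM (log axis) of the 10 Notch genes in each of the 6 tumors, older in red and younger in blue, with bars at the group means. Jag1 and Notch1 lie lower in the 3 older tumors than in the 3 younger ones and Notch4 lies higher, whereas the age groups overlap for the other genes.

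Promoter sequence was available from RefSeq for 8 of the 10 genes, in windows of 300 bases that end 50 bases after the annotated start. These sequences are from build GRCr8, while the counts were made on mRatBN7.2, and each is written 5′ to 3′ along its gene. Shown are the 3 genes whose age groups did not overlap and Hes1, the canonical target, at chr3:29721564-29721863 (Notch1), chr3:144894834-144895133 (Jag1), chr20:4189023-4189322 (Notch4) and chr11:84212996-84213295 (Hes1). These lie on the minus strand of the reference. Capitals mark the RBPJ core TGGGAA or its reverse complement TTCCCA.
Notch1: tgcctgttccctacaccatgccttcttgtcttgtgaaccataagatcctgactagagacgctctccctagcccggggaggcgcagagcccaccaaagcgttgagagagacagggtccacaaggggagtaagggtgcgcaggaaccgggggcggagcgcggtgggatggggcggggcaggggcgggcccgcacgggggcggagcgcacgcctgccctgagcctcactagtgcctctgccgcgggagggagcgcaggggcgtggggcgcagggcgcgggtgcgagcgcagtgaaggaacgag
Jag1: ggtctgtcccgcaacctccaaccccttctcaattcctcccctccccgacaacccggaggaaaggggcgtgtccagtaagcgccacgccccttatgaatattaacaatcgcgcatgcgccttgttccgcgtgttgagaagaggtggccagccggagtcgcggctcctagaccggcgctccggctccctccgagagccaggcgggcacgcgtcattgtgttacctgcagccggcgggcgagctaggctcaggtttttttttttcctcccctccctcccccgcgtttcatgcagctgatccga
Notch4: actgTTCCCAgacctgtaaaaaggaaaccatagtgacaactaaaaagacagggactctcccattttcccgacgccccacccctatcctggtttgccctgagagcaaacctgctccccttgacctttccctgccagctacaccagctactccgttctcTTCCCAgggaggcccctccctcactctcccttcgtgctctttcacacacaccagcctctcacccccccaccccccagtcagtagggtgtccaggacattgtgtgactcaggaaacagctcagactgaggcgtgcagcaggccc
Hes1: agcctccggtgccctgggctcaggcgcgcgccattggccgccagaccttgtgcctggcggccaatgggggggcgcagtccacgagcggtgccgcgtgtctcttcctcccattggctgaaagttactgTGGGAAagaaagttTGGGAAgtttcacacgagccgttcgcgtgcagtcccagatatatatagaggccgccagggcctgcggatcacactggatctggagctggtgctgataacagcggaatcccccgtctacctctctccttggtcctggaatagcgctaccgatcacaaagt

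The Hes1 window holds the core on the coding strand with first bases 123 and 109 bases upstream of the annotated start, both in the same orientation. Only exact matches were sought, so inexact sites are not marked. The Notch4 window holds it 246 and 93 bases upstream, both times as TTCCCA. The windows of Notch1 and Jag1 hold neither form, nor do those of Notch2 and Jag2, whose age groups overlapped. Among the windows not shown, that of Notch3 holds 1 copy and that of Dll1 holds 2. Of 33469 promoter windows of this length, 25.7% hold at least 1 copy on either strand and 3.85% hold 2 or more, so that a match is a description of these letters and not of a bound site. The longer form GTGGGAA, which contains the core, is present in 6.29% of the windows and, among the 4 shown, in that of Hes1 alone.

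Among the ligands, Jag1, the Jagged ligand best known from vessel and bile duct development, showed the largest difference. It stood at 42.8 (tumor 102), 63.4 (107) and 71.4 CPM (116) in older tumors. In younger tumors it stood at 349 (157), 116 (158) and 191 CPM (167). Every older tumor was thus below the lowest younger one, and the younger tumors spread more widely than the older ones. The mean was 59.2 ± 14.7 CPM (SD, n = 3) against 219 ± 119 CPM (SD, n = 3). By edgeR the log2 fold change, older against younger, was -1.88 with a standard error (SE) of 0.43 and a 95% interval of -2.89 to -0.88, or 3.69-fold lower. The p-value was 0.00267 before and 0.290 after adjustment over all genes (edgeR), which ranked Jag1 at 121 of 13139 genes. A two-sided exact permutation test of log2 CPM gave p = 0.1, the smallest that 3 tumors against 3 allow. DESeq2, the tool named in the study's methods, called Jag1 with an adjusted p of 0.00517 at nearly the same fold change, and 2.49% of the genes it tested were called. Jag1 was the only one of the 10 genes it called. Without tumor 102 the log2 fold change was -1.70, and without younger tumor 157, which had the highest level, it was -1.38.

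The other ligands showed smaller differences, all negative. Jag2, the second Jagged ligand, was measured at 28.5, 85.8 and 58.4 CPM in older tumors 102, 107 and 116. In younger tumors 157, 158 and 167 it was measured at 133, 64.5 and 61.2 CPM. The groups overlapped, since tumor 107 exceeded both tumor 158 and tumor 167 (log2 fold change -0.58 with SE 0.47, edgeR's adjusted p = 0.842). Dll1, a Delta-like ligand that acts in segmentation and in stem cell niches, stood at 6.17, 31.7 and 15.6 CPM in the older tumors. It stood at 35.7, 14.8 and 29.2 CPM in the younger ones, again with overlap (log2 fold change -0.57 with SE 0.59, edgeR's adjusted p = 0.891). Without tumor 102, which had the lowest Dll1 level, the log2 fold change of Dll1 was -0.17, and without tumor 107, the highest older one, it was -1.26. That of Jag2 ranged from -0.98 (without tumor 107) to -0.13 (without tumor 157). In the RefSeq annotation the span of Dll1 overlaps that of Fam120b, so that reads of these genes may not be fully separated.

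Dll4, the Delta-like ligand of endothelial tip cells, had the fewest counts, from 9 to 133 per tumor. It stood at 15.8 (tumor 102), 12.2 (107) and 1.79 CPM (116) in older tumors. It stood at 16.4 (157), 24.0 (158) and 5.16 CPM (167) in younger tumors. The range was wide within both groups and they overlapped (log2 fold change -0.63 with SE 0.80, 95% interval -2.49 to 1.22, edgeR's adjusted p = 0.911). Leaving out one tumor each gave -1.14 (without tumor 102) to -0.13 (without tumor 116). The annotated span of Dll4 overlaps Dll4l1, a gene named as Dll4-like, and the split of reads between them is uncertain.

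Among the receptors, Notch1 and Notch4 differed in opposite directions. Notch1, the receptor best known from T cell and epithelial fate decisions, stood at 187 (tumor 102), 107 (107) and 161 CPM (116) in older tumors. It stood at 538 (157), 241 (158) and 294 CPM (167) in younger tumors. No older tumor reached the lowest younger one. The log2 fold change was -1.24 (SE 0.38, 95% interval -2.12 to -0.35, edgeR), or 2.36-fold lower, with a p-value of 0.0124 before and 0.382 after adjustment over all genes. The exact permutation test gave p = 0.1, the smallest possible. DESeq2 gave an adjusted p of 0.0834. The log2 fold change was -0.83 without younger tumor 157 and -1.42 without older tumor 102.

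Notch4, a receptor known chiefly from endothelial cells, was measured at 255 (tumor 102), 220 (107) and 126 CPM (116) in older tumors. In younger tumors it was measured at 125 (157), 49.4 (158) and 20.2 CPM (167). The groups did not overlap, but older tumor 116 and younger tumor 157 were nearly level, and the highest tumor had 12.7 times the level of the lowest. The log2 fold change was 1.63 (SE 0.62, 95% interval 0.18 to 3.07, edgeR), or 3.08-fold higher in older tumors, with a p-value of 0.0318 before and 0.506 after adjustment. The exact permutation test again gave its smallest possible p of 0.1. The log2 fold change was 1.41 without tumor 102 and ranged from 1.20 to 2.51 over the fits that left out one tumor each.

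Notch2 and Notch3 gave no separation by age. Notch2, a receptor widely made in epithelium and in B cells and liver, stood at 371, 162 and 128 CPM in older tumors 102, 107 and 116, and tumor 102 had the highest level of all. It stood at 103, 207 and 48.7 CPM in younger tumors 157, 158 and 167, so that the groups overlapped (log2 fold change 0.88 with SE 0.59, edgeR's adjusted p = 0.793). The log2 fold change of Notch2 was 0.26 without tumor 102 and 1.54 without younger tumor 158. Notch3 stood at 130, 353 and 111 CPM in the older tumors. Its levels of 316, 196 and 134 CPM in the younger tumors lay within that range, so that its log2 fold change was -0.12 (SE 0.51, edgeR's adjusted p = 0.979).

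**Figure D2:**
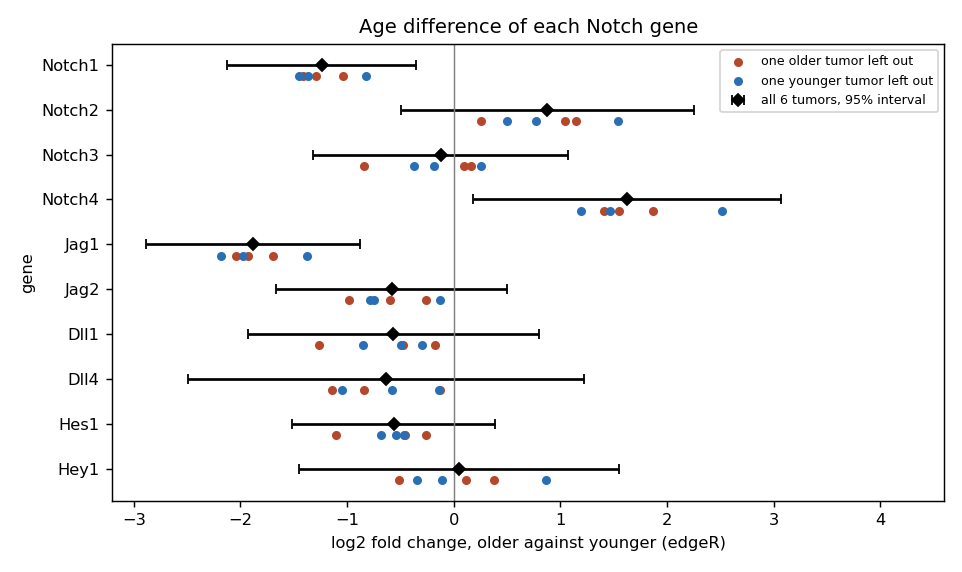
Log2 fold change of each Notch gene, older against younger tumors (edgeR), as black diamonds with 95% intervals, and below each the fits that left out an older (red) or a younger (blue) tumor. The intervals of Notch1, Jag1 and Notch4 lie to one side of 0, from -2.12 to -0.35, from -2.89 to -0.88 and from 0.18 to 3.07, before any adjustment for the number of genes tested.

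Because Notch1 and Notch4 lay on opposite sides, their ratio was computed within each tumor, a choice made after their values had been seen and therefore given with no test. A ratio of counts depends neither on library scaling nor, when the same ratio is set beside itself in another tumor, on gene length. There were 1.37, 2.05 and 0.783 Notch4 counts for each Notch1 count in older tumors 102, 107 and 116. In younger tumors 157, 158 and 167 there were 0.232, 0.205 and 0.0684. The lowest older ratio thus exceeded the highest younger one, and the mean log2 ratio was higher by 3.13 in older tumors (0.38 ± 0.70 against -2.76 ± 0.97, SD, n = 3 each). With Notch4 higher and Notch1 lower in every older tumor, this separation had to follow and is no further result. The ratio of Jag2 to Jag1 was also higher in every older tumor, from 0.664 to 1.35 against 0.320 to 0.555. Jag1 was itself lower in every older tumor, so that this ratio is not separate from the difference in Jag1. Of 7 such ratios computed, the other 5 overlapped between the age groups, with differences in mean log2 ratio of 2.15 for Notch2 to Notch1, 0.95 for Notch3 to Notch1, 0.92 for Dll4 to Jag1, 0.48 for Hes1 to Notch1 and 0.88 for Hey1 to Hes1.

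The targets did not separate the age groups. Hes1, a helix-loop-helix repressor that is a direct target of the pathway and whose promoter holds the matches to the RBPJ core shown above, stood at 24.0 (tumor 102), 74.2 (107) and 38.7 CPM (116) in older tumors. It stood at 77.1 (157), 55.7 (158) and 70.0 CPM (167) in younger tumors. The younger tumors lay close together, and older tumor 107 fell within their range while tumors 102 and 116 lay below it (log2 fold change -0.56 with SE 0.41, 95% interval -1.51 to 0.39, edgeR's adjusted p = 0.817). The value was -0.27 without tumor 102 and -1.10 without tumor 107. Hey1, a related repressor known from vessels and heart, was measured at 19.2, 37.3 and 68.8 CPM in the older tumors. It was measured at 31.3, 75.1 and 14.7 CPM in the younger tumors, and the log2 fold change was 0.05 (SE 0.64, edgeR's adjusted p = 0.993), with an interval of -1.45 to 1.55 that spans differences in either direction.

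Jag1, Jag2, Dll1 and Hes1 each had their lowest level in older tumor 102 and their highest in younger tumor 157. The basal epithelial score (mean log2 CPM of 6 tested markers) was also lowest in tumor 102, at 4.33, and highest in tumor 157, at 7.42. Its other values were 7.03 (107), 6.17 (116), 7.07 (158) and 6.80 (167), and the part of these cells in these Notch genes was not tested. Each gene was also set relative to that score within each tumor, a measure added after values had been seen and given with no test. The difference between older and younger tumors was then -0.51 for Jag1 and 0.07 for Notch1 on the log2 scale, and the age groups overlapped for both. The older values spread widely, at 0.02 ± 1.07 for Jag1 and 1.37 ± 1.76 for Notch1 (SD, n = 3). Younger values were 0.54 ± 0.65 and 1.30 ± 0.41 (SD, n = 3). Notch1 stood at 3.22 in tumor 102, with its low basal score, and at -0.28 (107) and 1.16 (116). The small difference of Notch1 thus leans on tumor 102. For the genes whose age groups overlapped without the score too, the difference was 0.63 for Jag2, 0.50 for Dll1 and 0.55 for Hes1. The luminal epithelial score was lower in every older tumor (6.87 ± 0.22 against 7.53 ± 0.23, SD, n = 3 each, exact permutation p = 0.1), with 0 of 9 tested markers past the threshold and all 9 fold changes negative (edgeR). At an unadjusted p under 0.05 there were 2 of these 9 markers, both lower in older tumors, against 3.29% of all genes. Relative to the luminal score, also with no test, the difference was -1.11 on the log2 scale for Jag1, with no overlap, and -0.53 for Notch1, with overlap, and the part of luminal cells in either was not tested. The macrophage score was higher in every older tumor (5.45 ± 0.43 against 4.12 ± 0.44, SD, n = 3 each, exact permutation p = 0.1), as was the T cell score (3.47 ± 1.13 against 1.90 ± 0.24, SD, n = 3 each, exact permutation p = 0.1), which rested on 3 tested markers. DESeq2 called 3 of the 62 tested markers of all cell types, against 2.49% of all genes, and edgeR called 0. They were Lyz2 of the macrophage list (DESeq2's adjusted p = 0.000125), Cd8a of the T cell list (0.0120) and Des of the mural list (0.0499). By edgeR their adjusted p was 0.262, 0.361 and 0.507. Cd8a, a coreceptor of cytotoxic T cells, stood at 10.3 (tumor 102), 74.2 (107) and 6.78 CPM (116) in older tumors. It stood at 2.34 to 4.58 CPM in younger ones. Des stood at 19.2 (tumor 102), 215 (107) and 4.19 CPM (116) in older tumors. In younger tumors Des stood at 12.1 (157), 6.66 (158) and 2.95 CPM (167). The age groups overlapped for Des, and its difference leans on tumor 107. The part of macrophages and T cells in the Notch genes was not tested.

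The vascular members were set beside vessel markers over the 6 tumors, in 4 relations. The endothelial score (11 tested markers) did not separate the age groups, at 4.59 ± 0.72 in older and 4.19 ± 0.86 in younger tumors (SD, n = 3 each, exact permutation p = 0.5), and its summed CPM was 226 to 545 and 142 to 510. Notch4 gave Pearson's r of 0.684 and Spearman's rho of 0.771 with this score (exact permutation p = 0.128 and 0.103, adjusted p = 0.170 and 0.206 over the 4 relations). Without the 2 tumors farthest from the median score, 167 and 116, r was 0.316. Without younger tumor 167 alone r was 0.176 and without older tumor 116 alone it was 0.816, so the relation rests on tumor 167. Without younger tumor 158 alone r was 0.899 with an adjusted p of 0.0333 (exact permutation test). Relative to the endothelial score, Notch4 was higher in every older tumor, by 1.54 on the log2 scale, and Dll4 was lower in every older tumor, by 1.17, both measures added after values had been seen and given with no test. For Dll4 the older values were -1.05 (tumor 102), -1.27 (107) and -2.61 (116), against -0.75 to -0.27 in younger tumors. Tumor 116 had only 9 Dll4 counts. The same measure for Notch3, relative to the score of mural markers, overlapped between the age groups, with a difference of 0.26. The macrophage score was 5.65 (tumor 102), 5.75 (107) and 4.96 (116) in older tumors. In younger tumors it was 4.56 (157), 4.11 (158) and 3.68 (167). Notch4 was not set relative to the macrophage score, so its difference is given for the endothelial score alone. Dll4 gave r of 0.775 and rho of 0.486 with the endothelial score (exact permutation p = 0.0625 and 0.356, adjusted p = 0.125 and 0.474), and without tumors 167 and 116 r was -0.0922. Hey1 gave r of 0.231 and rho of 0.143 (exact permutation p = 0.665 and 0.803, adjusted p = 0.665 and 0.803), with r of -0.140 without the same tumors and of -0.507 without tumor 167 alone.

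Of the 4 relations, that of Notch3 with the mural markers was the closest. Over the 6 tumors r with the mural score (10 tested markers) was 0.871 and rho was 1 (exact permutation p = 0.00694 and 0.00278, adjusted p = 0.0278 and 0.0111). Without tumors 116 and 107, the farthest from the median score, r was 0.976 over 4 tumors. The relation did not pass the adjusted threshold without older tumor 107 (r of 0.821, adjusted p = 0.267), without younger tumor 157 (r of 0.860, adjusted p = 0.200) or with libraries scaled by their totals alone (r of 0.865, adjusted p = 0.117, all by the exact permutation test). The mural list includes Acta2, Myh11 and Cnn1, contractile genes that myoepithelial cells of the gland also make. The mural score itself overlapped between the age groups, at 5.39 ± 1.02 in older and 5.88 ± 0.29 in younger tumors (SD, n = 3 each, exact permutation p = 0.6). No correlation is given within an age group, which holds only 3 tumors.

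**Figure D3:**
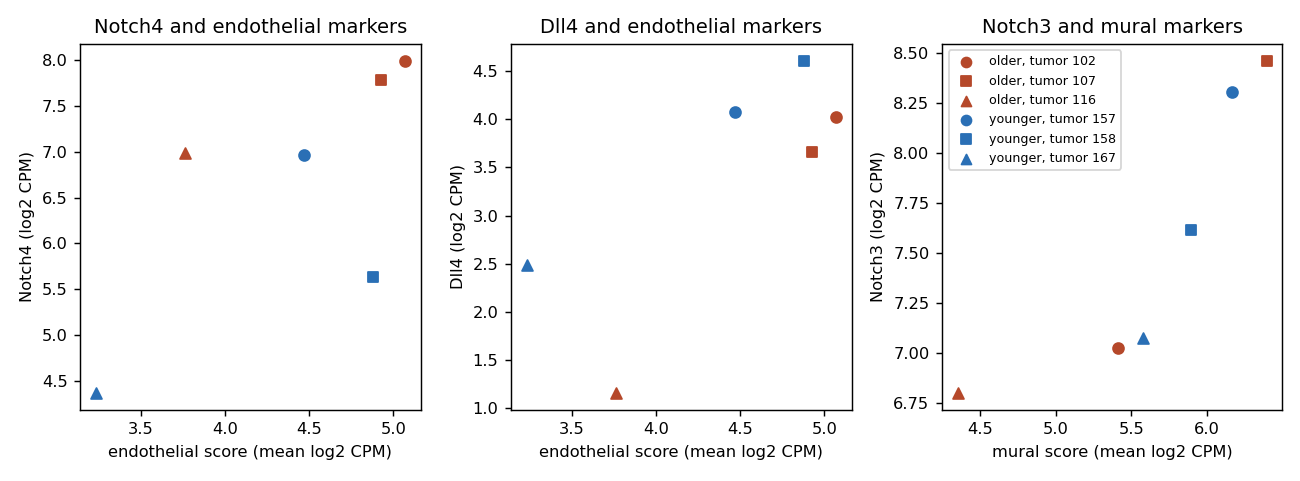
Log2 CPM of Notch4, Dll4 and Notch3 in each of the 6 tumors against the mean log2 CPM of endothelial or mural markers, older in red and younger in blue. Over all 6 tumors Pearson's r is 0.684 for Notch4, 0.775 for Dll4 and 0.871 for Notch3, and Spearman's rho is 0.771, 0.486 and 1. Without the 2 tumors farthest from the median score, r is 0.316 for Notch4 and -0.0922 for Dll4 (without 167 and 116). For Notch3 it is 0.976 (without 116 and 107).

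Of 55 other genes of the pathway, 49 had enough counts to be tested and 0 passed the adjusted threshold (edgeR). At an unadjusted p under 0.05 there were 4 of the 49, against 8.59% of all genes, with 2 lower (3.29% of all genes) and 2 higher (5.30%), so that the share was near the background, and DESeq2 called 0 (2.49% of all genes). Their fold changes were evenly divided, 24 negative and 25 positive, with a median log2 value of 0.00, as for all genes tested when rounded. The genes with too few counts were Dll3, Dner, Neurl1, Hes2, Hes5 and Hes7. The largest positive difference was that of Dtx1, a Deltex ubiquitin ligase that binds the receptor, at 2.74, 5.43 and 4.19 CPM in older tumors 102, 107 and 116. It stood at 0.704, 1.44 and 1.23 CPM in younger tumors 157, 158 and 167, with no overlap (log2 fold change 1.87 with SE 0.54, edgeR's adjusted p = 0.359). These levels rest on few counts. Neurl1b, a ubiquitin ligase for ligand endocytosis that was singled out after its values were seen, was lower in every older tumor, at 2.74 to 4.53 CPM against 5.41 to 26.1 CPM (log2 fold change -1.92 with SE 0.69, edgeR's adjusted p = 0.477).

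The machinery that carries the signal showed small differences. All 7 genes of the nuclear complex had positive fold changes, while 50.4% of all genes tested had negative ones. The values ran from 0.01 (Ep300, SE 0.28) and 0.02 (Snw1, SE 0.23) to 0.73 on the log2 scale. The one with the smallest p-value, Maml2, a Mastermind coactivator, stood at 221, 160 and 157 CPM in older tumors, above the 103, 144 and 75.9 CPM of the younger tumors (log2 fold change 0.73 with SE 0.30, edgeR's adjusted p = 0.559). The 8 genes of receptor cleavage were divided into 4 lower and 4 higher, with Psenen, a gamma-secretase subunit, at the smallest p-value (log2 fold change -0.39 with SE 0.30, edgeR's adjusted p = 0.833). The corepressors were likewise divided, 4 lower and 3 higher, with Hdac1, a histone deacetylase, at -0.52 (SE 0.33, edgeR's adjusted p = 0.777). Of the 5 genes that glycosylate the receptor or its ligands, 3 were lower and 2 higher. Among them Lfng, a Fringe enzyme that shifts receptors toward Delta-like ligands, was at a log2 fold change of 0.63 (SE 0.32, edgeR's adjusted p = 0.689). Of the 2 further ligands tested, Dlk1, a noncanonical one, was at 0.07 (SE 0.67, edgeR's adjusted p = 0.990).

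Of the 8 tested genes listed as further targets, 6 had negative fold changes, with a median log2 value of -0.51. Whether each is a target of the pathway in these tumors was not tested. Hes6, a HES relative that opposes Hes1, had the smallest p-value and was lower in every older tumor. It stood at 8.23, 8.83 and 7.78 CPM in older tumors and at 12.1, 27.4 and 11.1 CPM in younger ones (log2 fold change -1.03 with SE 0.43, edgeR's adjusted p = 0.574). The older values were close together, and younger tumor 158 stood above the other tumors.

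**Figure D4:**
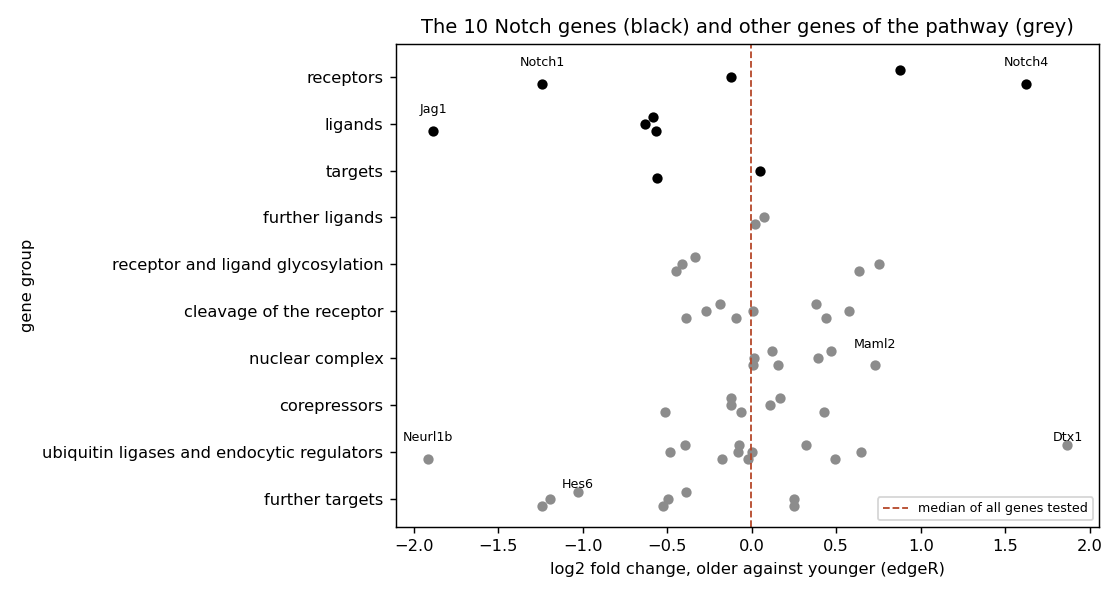
Log2 fold changes, older against younger tumors (edgeR), of the 10 Notch genes (black) and of 49 other tested genes of the pathway (grey) by group, with the median of all genes tested as a dashed line. Jag1 at -1.88, Notch1 at -1.24 and Notch4 at 1.63 lie far from the median, as do Neurl1b at -1.92 and Dtx1 at 1.87, and genes with an unadjusted p under 0.05 are named.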

How the data were processed

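Bulk RNA-seq libraries of 6 rat mammary tumors were prepared after removal of ribosomal RNA and sequenced as paired reads of 150 bases (the labels state polyA RNA and 100 bases). The authors trimmed adapters with Trimmomatic 0.38, aligned reads with STAR 2.7.9a to mRatBN7.2, marked duplicates with Picard 2.18.12 and deposited read counts per gene from HTSeq 0.13.5, not normalized. The strand setting, the annotation and the treatment of marked duplicates are not given in the sources used here, so reads of overlapping genes cannot be assigned with certainty.

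The software was R (4.3.3), with the packages edgeR (4.0.16), DESeq2 (1.42.0) and limma (3.58.1). The 4367 rows without a gene name, which held 2.17% to 3.64% of the counts, were left out, and 0 columns were unused. Of 26195 named rows, 13139 passed filterByExpr. Age groups were compared across all of them with TMM scaling, edgeR's quasi-likelihood test and Benjamini-Hochberg adjustment, and no covariates. Standard errors and 95% intervals were calculated from the F statistic. For log2 CPM, 2 was the prior count. Each library is a separately numbered tumor. The statistics were tested on simulated data.

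Members and lists were chosen with earlier results of these data known. All 10 members are described, and of each other pathway group the gene with the smallest p is named. Alternatives were other scalings, tests and filters, another prior count, omission of the 10 most abundant genes or of each tumor, and, added after the data were seen, keeping unnamed rows.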

Additional observations from a re-analysis of the deposited data

How the results depend on the processing

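No paired analysis was possible because the older and younger tumors came from different rats. The count of Notch genes past the threshold was 0 in every edgeR fit and with limma-voom, including the 6 fits that left out one tumor each (0 to 0), and 1 (Jag1, log2 fold change -1.89) with the DESeq2 Wald test, which called 326 genes in all against 0. When one tumor was omitted, counts over all genes and over the other pathway genes were also 0 to 0. Jag1, Notch1 and Notch4 kept their direction under each alternative run, with log2 fold changes of -2.18 to -1.38, -1.45 to -0.83 and 1.20 to 2.51 when one tumor was left out. Notch3 and Hey1 took the other sign with a tumor left out: Notch3 was at 0.10 without older tumor 102, 0.16 without older tumor 116 and 0.25 without younger tumor 157 (range -0.84 to 0.25), and Hey1 was at -0.52 without older tumor 116, -0.11 without younger tumor 157 and -0.35 without younger tumor 167 (range -0.52 to 0.87). The correlation of Notch3 with the mural score was 0.865 with library totals alone, no longer past the threshold after adjustment, and ranged from 0.821 (without older tumor 107) to 0.983 with one tumor left out, past the threshold in each such fit except those without tumor 107 or 157. Leaving out younger tumor 158 raised the correlation of Notch4 with the endothelial score to 0.899 (adjusted p = 0.0333, exact permutation test), and its range was 0.176 to 0.899; that of Hey1 was -0.507 (without tumor 167) to 0.570, and that of Dll4 was 0.744 to 0.869. With 9 to 133 counts per tumor, Dll4 is limited by depth most, and it did not pass a filter of 10 counts in every tumor.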
